A study of Mus musculus with 6 samples.

Results

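The nuclear-encoded genes of the mitochondrial respiratory chain and ATP synthase were taken from the deposited transcript tables by name. The pattern covered the Nduf, Uqcr, Cox4 to Cox8, Atp5 and Sdha to Sdhd symbols. Of 114 matching names, 15 pseudogene symbols ending in -ps and 8 Ndufaf assembly factors were left out, which left 91 genes of 49203 named genes, with 402 named transcripts. By name, 41 belong to complex I, 4 to complex II, 8 to complex III, 21 to complex IV (Ndufa4 and Ndufa4l2 included) and 17 to complex V. A gene's level is the sum of the FPKM (fragments per kilobase of transcript scaled to library depth) of its named transcripts, after scaling the libraries to one another.

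The study sequenced total RNA from mouse Sertoli cell lines, the somatic cells that nurse germ cells in the seminiferous tubules. All lines are described by whether they expressed a GFP reporter on the Y chromosome. The GFP-positive group, with the phenotype label Green, holds libraries 2, 4 and 7, and the GFP-negative group, labelled Non-green, holds libraries 9, 11 and M. No treatment is named, and mouse strain, age, passage and the number of independent clones are not given in the sources used here. The p-values therefore measure the spread between these libraries, which may be technical.

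Respiratory complexes sit in the inner mitochondrial membrane. Complexes I and II pass electrons from NADH and succinate to coenzyme Q, complex III hands them on to cytochrome c, and complex IV reduces oxygen. The proton gradient built by complexes I, III and IV drives ATP synthase, called complex V here. Most subunits are encoded in the nucleus, complex II entirely so, while a few core subunits of the other complexes come from mitochondrial DNA. Sertoli cells are known for using glycolysis and exporting lactate to germ cells, and for oxidising fatty acids for their own ATP.

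Aligned bases were 11.2, 11.8 and 11.3 Gb in GFP-positive 2, 4 and 7 and 10.0, 9.67 and 8.25 Gb in GFP-negative 9, 11 and M. In the same order, deposited FPKM over all transcripts summed to 668557, 747404 and 723729 and to 470070, 292449 and 309971. Both were higher in the GFP-positive libraries, without overlap. Of 12 Sertoli markers, 11 passed the filter on low values (a mean scaled FPKM of at least 0.5). Their summed level was 1521 to 3267 in the GFP-positive and 737 to 3072 in the GFP-negative libraries. Clu made up most of that sum in every library (1204 to 2796 in GFP-positive and 509 to 2647 in GFP-negative libraries). Dmrt1 was called higher (log2 difference, GFP-positive minus GFP-negative, 1.13), and Sox9 (-1.89) and Gata4 (-1.79) were called lower. Rhox5 stayed at or below 0.23 in every library. Beside each count of marker calls in this paragraph, 12.4% of all tested genes were called higher and 11.5% lower. Of 14 germ cell markers, 9 were tested, 6 were called higher in GFP-positive libraries and none lower, and their summed level was 126 to 166 in the GFP-positive and 93.1 to 100.2 in the GFP-negative libraries. All 6 had a GFP-negative mean under 0.5 (0.444 at most, in Dazl), so they passed the filter only through their GFP-positive levels. A lower call was not open to them. Uchl1 alone made up most of the GFP-negative sum (91.7, 95.1 and 97.3 in 9, 11 and M). Without it the sums were 147.5, 33.8 and 53.4 in GFP-positive 2, 4 and 7 and 1.34, 1.65 and 2.85 in GFP-negative 9, 11 and M. The sperm protamine genes Prm1 and Prm2 were listed at 0 in all 6 libraries. Of the 9 tested germ cell markers 6 (Dazl, Ddx4, Mael, Tex101, Gfra1 and Sycp3) were highest in GFP-positive 2, while Stra8, Uchl1 and Kit were lowest there among the GFP-positive libraries. The fibroblast sum, 10.5 to 18.7 in GFP-positive libraries and 16.6 to 701 in GFP-negative ones, had its highest values in GFP-negative 11 and M, and 1 of its 4 tested markers was called lower. Of the peritubular myoid markers 1 of 5 tested was called lower, of the Leydig markers none of 4, of the macrophage markers 1 of 2 and of the endothelial markers none of 1, with no higher call in any of them. The part of these other cell types in the differences described here was not tested.

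Most respiratory chain genes were higher in the GFP-positive libraries. After the filter 82 of the 91 genes were tested with limma across all 13585 tested genes. Of these, 55 rose in GFP-positive libraries, 2 fell (Sdha and Ndufa10) and 25 did not pass an adjusted p of 0.05. Among all tested genes 23.9% were called, 12.4% higher and 11.5% lower. In 68 of the 82 genes all 3 GFP-positive libraries lay above all 3 GFP-negative ones, against 22% of all tested genes, and in 2 they lay below, against 22.7%. The median log2 difference, GFP-positive minus GFP-negative, was 1.27 over the 82 genes and -0.01 over all tested genes. The difference was above 0 in 77 of the 82.

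The summed level of the 91 genes was 7874, 9286 and 8503 scaled FPKM in GFP-positive 2, 4 and 7, and 4206, 3122 and 3018 in GFP-negative 9, 11 and M. The groups did not overlap, and GFP-negative 9 was the closest to the GFP-positive libraries. Both also held for the sum over all tested genes. It was 372966 to 407758 in GFP-positive libraries, 262340 in GFP-negative 9, 208500 in 11 and 203698 in M. GFP-negative 9 was the highest of the 3 GFP-negative libraries in 50 of the 82 tested member genes. In 49 it lay between libraries 11 and M below it and all GFP-positive libraries above it. The median spread within a group (SD on the log2 scale) was 0.18 in the GFP-positive and 0.38 in the GFP-negative libraries. In RNA from whole cultures, a change in the make-up of the cells and a change in the RNA of each cell cannot be told apart. The calls depended on single libraries. Without GFP-positive 7, or without GFP-negative M, no member passed the adjusted threshold in limma, while 58 members were higher and 2 lower at an unadjusted p under 0.05 in each case. Of all tested genes 30.1% and 28.8% were under that unadjusted p in these fits, in the same order. Without GFP-positive 4 there were 31 higher calls, without GFP-positive 2 there were 39 and without GFP-negative 11 there were 43. Without GFP-negative 9 all 55 higher and both lower calls were kept.

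**Figure D1:**
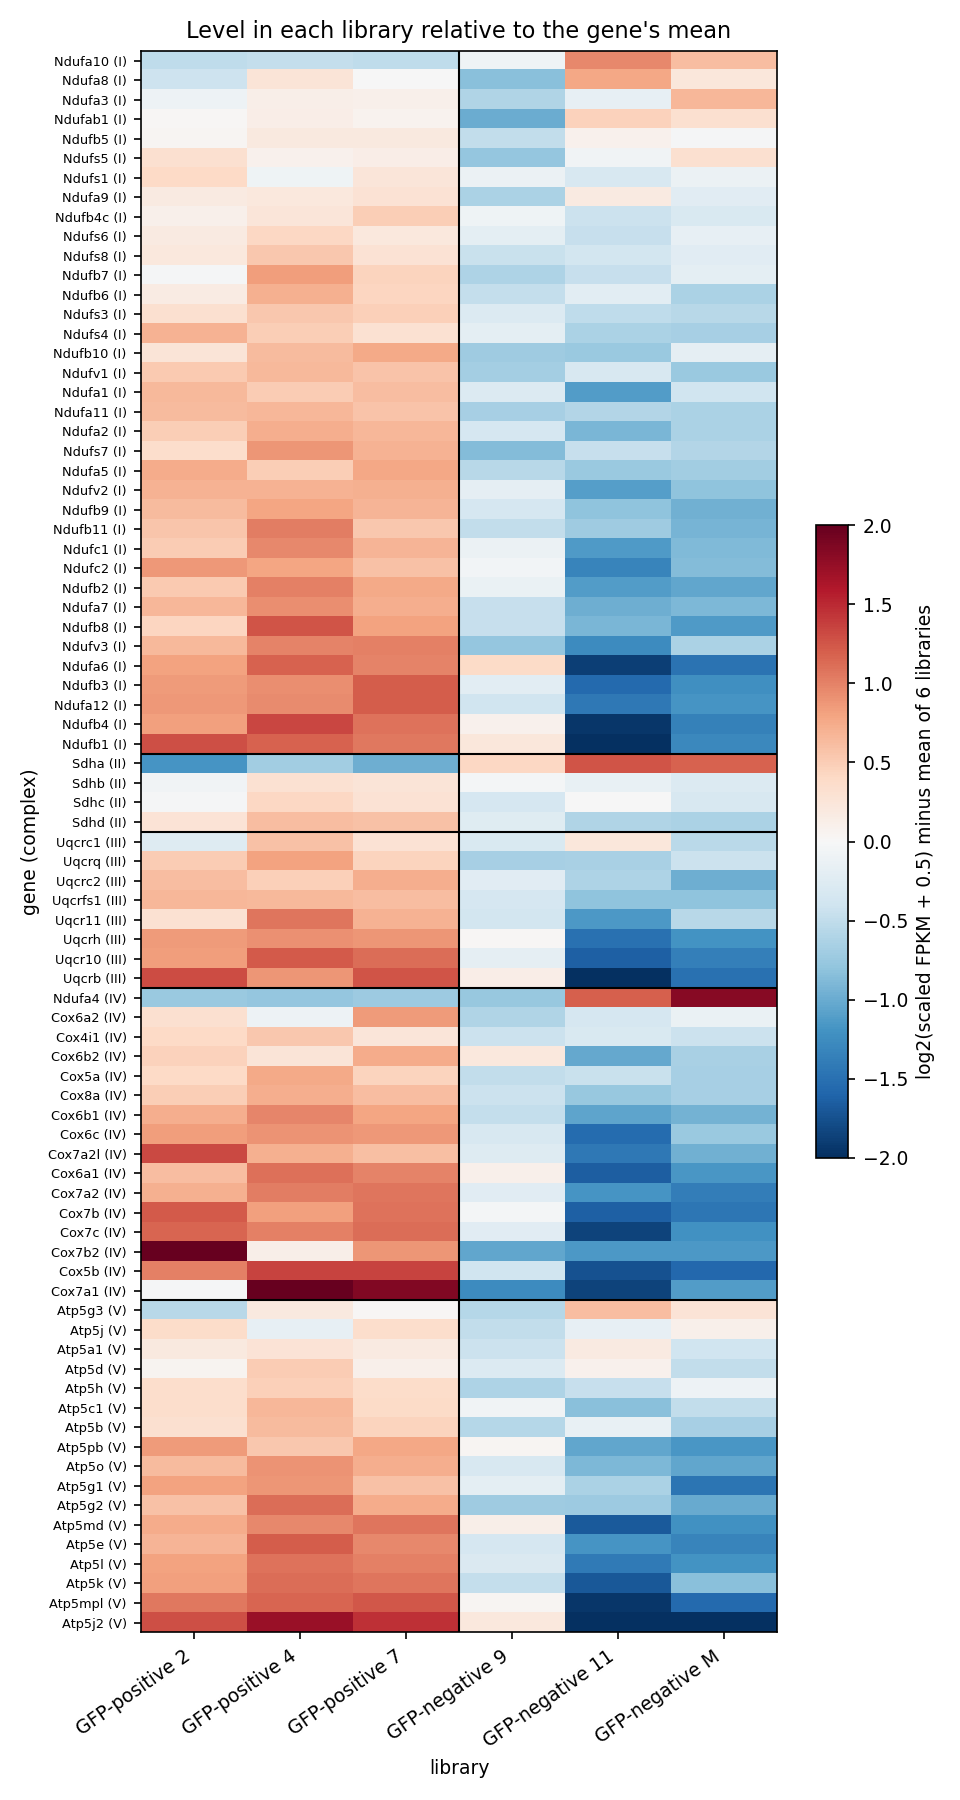
Level in each library of the 82 tested genes, 1 of them not shown, as log2(scaled FPKM + 0.5) minus the gene's mean over the 6 libraries (colour scale from -2 to 2, values beyond it drawn in the end colours), ordered within complexes I to V by the difference between groups. Most rows are red in the 3 GFP-positive libraries and blue in GFP-negative 11 and M, with paler values in GFP-negative 9, and Sdha, Ndufa10 and Ndufa4 run the other way.

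Respiratory chain transcripts are short, and short transcripts were higher in the GFP-positive libraries across the whole table. The median length (weighted by FPKM over a gene's transcripts) was 782 nt for the 82 genes and 2715 nt for all tested genes. Across genes, which are not independent replicates, length and log2 difference had a Spearman rho of -0.44 over all 13585 genes and -0.38 over the 82. Among genes of 400 to 600 nt the median difference was 0.77 over all 343 genes and 1.63 over 23 members. From 800 to 1000 nt it was 0.76 over 505 genes and 1.51 over 15 members, and from 1500 to 2000 nt 0.33 over 1668 genes and 0.96 over 10 members. With the length trend removed by a loess fit in each library, the members' median was 0.69, beside 0.03 for all tested genes, and 17 members were called higher and 3 lower (Sdha, Ndufa10 and Ndufa4). All tested genes then gave 782 higher and 1002 lower calls.

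**Figure D2:**
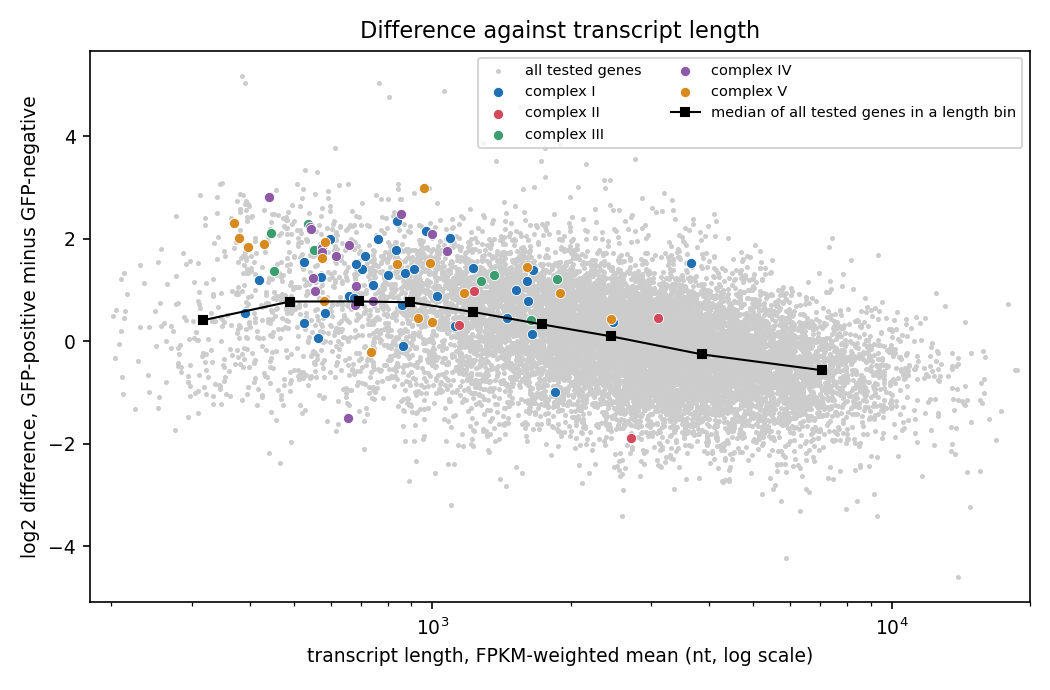
Log2 difference, GFP-positive minus GFP-negative, of each tested gene against its FPKM-weighted mean transcript length in nucleotides (log axis). Grey points are all 13585 tested genes, coloured points are members by complex, and the black line joins the medians of all genes in length bins. Members of 400 to 600 nt had a median of 1.63 where the line stands at 0.77.

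Complexes III, IV and V had the highest medians and complex II the lowest, although no test compared the complexes with one another. The median log2 difference was 1.19 in complex I (37 tested), 0.38 in complex II (4), 1.33 in complex III (8), 1.75 in complex IV (16) and 1.51 in complex V (17). Higher calls numbered 24 in complex I, 1 in complex II, 7 in complex III, 12 in complex IV and 11 in complex V. With the length trend removed the medians were 0.55, 0.15, 0.91, 1.06 and 0.92 in the same order. Under scaling to an equal sum of FPKM the median of all genes moved to -0.67, and that of complex II changed sign to -0.38. The other 4 complexes stayed above 0, at 0.42 (I), 0.55 (III), 0.97 (IV) and 0.73 (V), and 27 members were called higher and 3 lower. That scaling turned the calls over all genes from 1678 higher and 1564 lower to 517 higher and 4827 lower.

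**Figure D3:**
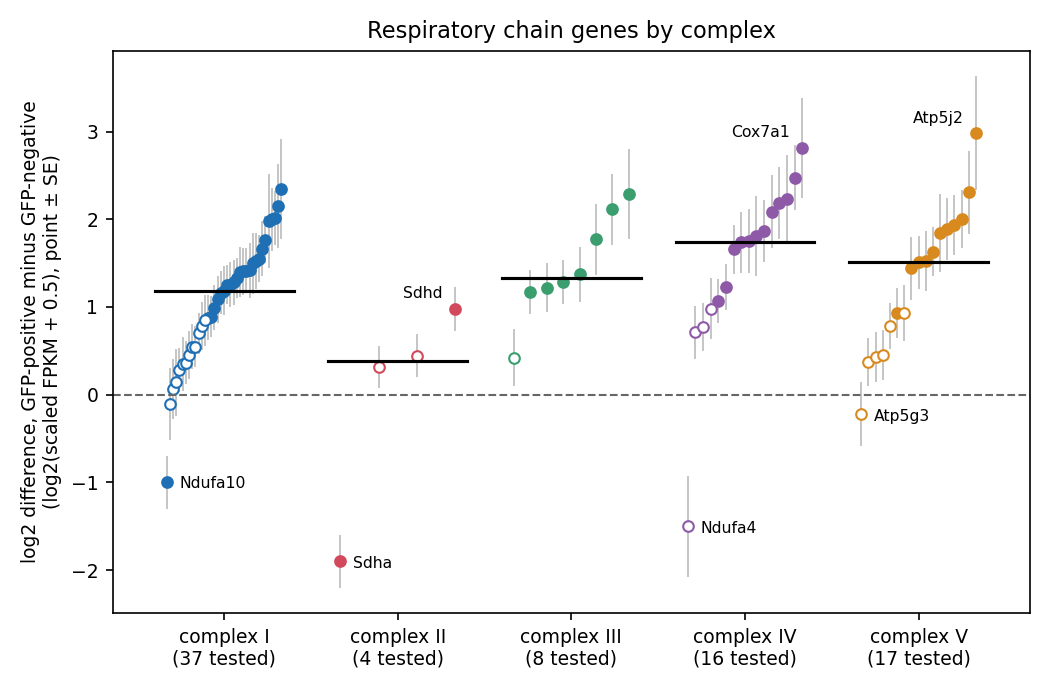
Log2 difference, GFP-positive minus GFP-negative, on the log2(scaled FPKM + 0.5) scale for each tested gene, sorted within its complex, with its standard error (grey line). Filled points passed an adjusted p of 0.05, open points did not, and the black bar is the median of the complex, from 0.38 in complex II to 1.75 in complex IV.

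Summed levels separated the groups in complexes I, III, IV and V, with all 3 GFP-positive libraries above all 3 GFP-negative ones. The sum over all tested genes separated them too. That sum was 372966, 407758 and 376090 scaled FPKM in GFP-positive 2, 4 and 7 and 262340, 208500 and 203698 in GFP-negative 9, 11 and M. Complex V genes summed to 2786, 3427 and 3067 scaled FPKM in GFP-positive 2, 4 and 7 and to 1511, 1268 and 1071 in GFP-negative 9, 11 and M. Complex II genes summed to 106, 138 and 132 in the GFP-positive libraries and to 101, 109 and 101 in the GFP-negative ones, so the groups overlapped there.

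**Figure D4:**
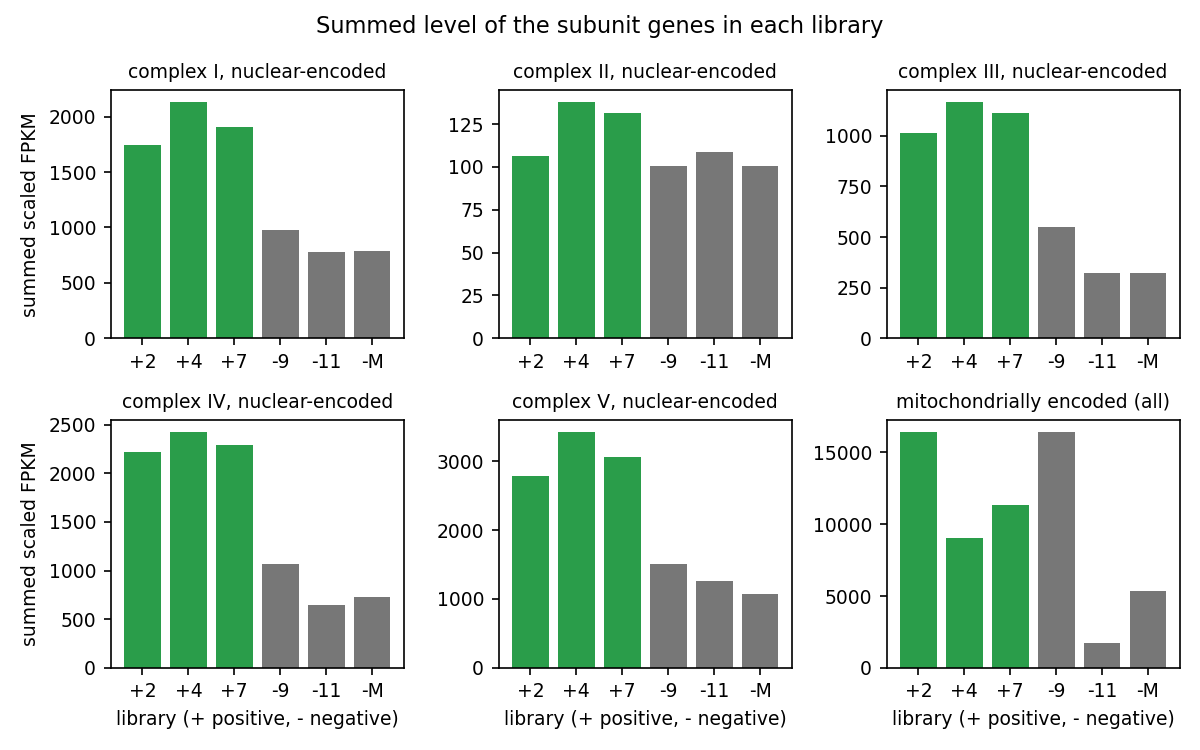
Summed scaled FPKM of the nuclear-encoded genes of complexes I to V and of the 13 mitochondrially encoded subunits, 1 bar per library (green GFP-positive 2, 4 and 7, grey GFP-negative 9, 11 and M, axes from 0). The groups separate in complexes I, III, IV and V, overlap in complex II, and overlap for the mitochondrially encoded subunits, where GFP-negative 9 (16434) matches GFP-positive 2 (16411). The sum over all tested genes, not drawn, separates the groups as well.

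Respiratory chain promoters are known to be bound by a few widely expressed transcription factors, so the start regions were read from the RefSeq promoter table (build GRCm38.p6, 250 bases before to 50 after a start), in which 70 of the 91 symbols matched. Exact letters were searched on both strands. They were GCATGCGC for NRF1, nuclear respiratory factor, CCGGAAG for ETS factors such as GABP, and AAGATGGC for YY1. NRF1 copies can overlap, since the reverse complement shares most of its letters. The NRF1 letters stood in 10 of 70 members (14.3%), beside 3.05% of all 27025 genes in the table. The ETS letters stood in 17 (24.3%) beside 9.93%, and the YY1 letters in 10 (14.3%) beside 3.19%. At least 1 of these motifs was found in 44.3% of members and 14.9% of all genes. All genes here means every symbol in the promoter table and not only the tested genes, for which no share was computed. Among members called higher the shares were 14.6%, 25% and 12.5%, and among members not called they were 16.7%, 27.8% and 22.2%, for NRF1, ETS and YY1 in turn. A match of letters is a description of the sequence, and binding was not measured here.

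Stretches at the starts of 4 genes are shown, as examples of the letters searched in genes that rose (the ATP synthase membrane genes Atp5k, Atp5l and Atp5j2) and for Sdha, the gene with the largest fall. They do not stand for the members as a whole. Cox7a1, Cox5b, Ndufb1, Cox7c and Ndufb4, also among the largest rises, held none of these letters, and Sdhb, which was not called, held NRF1 and ETS letters. Capitals mark motif letters, positions count from the start, and all 4 genes lie on the minus strand of the genome with the sequence written 5′ to 3′ along the gene. Atp5k (chr5:108434400-108434649) holds overlapping NRF1 letters from -50 and -48, and ETS letters from 13 bases after the start, outside the bases shown. Atp5l (chr9:44920743-44920992) holds NRF1 letters from -240 and ETS letters, on the opposite strand, from -212, and again from 25 bases after the start, outside the bases shown. For Atp5j2 (chr5:145191500-145191529) only 30 bases around the YY1 letters at 24 bases after the start are given. The 250 bases before the Sdha start (chr13:74350241-74350490) held none of these exact letters. Variants of the letters were not searched, in Sdha or in any other gene, so this does not show that sites of these factors are absent.
Atp5k: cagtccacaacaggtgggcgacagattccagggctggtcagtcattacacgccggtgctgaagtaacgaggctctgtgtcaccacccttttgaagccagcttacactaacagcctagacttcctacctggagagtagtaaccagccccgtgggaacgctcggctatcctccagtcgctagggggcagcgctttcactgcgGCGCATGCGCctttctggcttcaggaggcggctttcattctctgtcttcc
Atp5l: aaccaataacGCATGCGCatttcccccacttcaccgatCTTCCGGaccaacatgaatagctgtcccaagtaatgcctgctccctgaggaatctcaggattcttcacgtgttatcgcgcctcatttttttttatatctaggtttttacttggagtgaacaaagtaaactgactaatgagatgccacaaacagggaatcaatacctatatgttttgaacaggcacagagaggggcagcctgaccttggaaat
Atp5j2: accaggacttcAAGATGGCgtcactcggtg
Sdha: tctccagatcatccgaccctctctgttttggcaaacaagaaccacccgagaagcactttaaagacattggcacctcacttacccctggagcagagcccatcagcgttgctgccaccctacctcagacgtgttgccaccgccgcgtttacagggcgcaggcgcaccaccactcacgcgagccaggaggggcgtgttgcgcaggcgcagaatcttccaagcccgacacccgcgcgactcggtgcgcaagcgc

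Complex I, the NADH dehydrogenase, had 37 tested genes, of which 24 rose and 1 fell. Its highest nuclear transcript by mean level was Ndufa7, an accessory subunit. Ndufa7 measured 146, 175 and 152 scaled FPKM in GFP-positive 2, 4 and 7 and 66.6, 46.3 and 49.2 in GFP-negative 9, 11 and M, a log2 difference of 1.55 (SE 0.27, adjusted p = 0.0122). The GFP-positive values all lay above the GFP-negative ones.

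The largest rises in complex I were in accessory subunits, which surround the catalytic core. Ndufb1, a small membrane-arm subunit, stood at 36.6, 33.99 and 30.9 in the GFP-positive and 17.2, 2.28 and 5.71 in the GFP-negative libraries, and the difference was 2.35 (SE 0.57, adjusted p = 0.0242). GFP-negative 9 was nearest to the GFP-positive libraries, though still below all of them. Ndufb4, also of the membrane arm, gave 95.04, 136 and 114 against 56.97, 13.5 and 20.7, a difference of 2.15 (SE 0.48, adjusted p = 0.0197). Ndufa12, an accessory subunit of the matrix arm, gave 52.4, 55.3 and 67.2 against 21.5, 10.3 and 12.3, a difference of 2.01 (SE 0.31, adjusted p = 0.00996). Ndufb3 gave 27.1, 28.6 and 35.04 against 12.7, 4.72 and 6.02, a difference of 1.999 (SE 0.36, adjusted p = 0.0129). In each of these genes library 9 was the highest GFP-negative value and library 11 the lowest. Ndufv3, an accessory subunit of the NADH-binding module and named after its values were seen, had a smaller difference of 1.77 (SE 0.27, adjusted p = 0.00989) but a narrow spread, at 17.6 ± 2.44 in the GFP-positive and 4.86 ± 1.15 in the GFP-negative libraries (SD, n = 3). Ndufa12, Ndufv3 and the complex IV gene Cox5b were each called under 18 of 21 alternative settings, the highest count among the members.

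Of the nuclear core subunits of complex I, which carry the flavin and iron-sulfur clusters or the quinone site, 4 rose: Ndufv2 (1.40), Ndufs7 (1.28), Ndufv1 (1.16) and Ndufs3 (0.89). Ndufs8 (0.70) and Ndufs1 (0.36), the largest core subunit, did not pass. Among the 29 tested accessory subunits 20 rose, with a median of 1.26, and their rises ran from 0.88 (Ndufb6) to 2.35 (Ndufb1). Accessory subunits were shorter than core ones (median 763 against 1611 nt). With the length trend removed the accessory median was 0.62, and 4 accessory subunits and 1 core subunit were called higher. The accessory subunits Ndufb7, Ndufs6, Ndufa9, Ndufs5, Ndufb5, Ndufa3 and Ndufab1 and the paralogue Ndufb4c did not pass, with differences from 0.07 to 0.85. Ndufab1, the mitochondrial acyl carrier protein that also serves fatty acid synthesis, overlapped between groups at 10.8, 11.7 and 11.3 against 5.14, 14.9 and 13.4.

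Ndufa10, an accessory subunit with a nucleoside-kinase fold, was the exception that fell. Its level was 10.6, 10.9 and 10.6 in the GFP-positive and 14.4, 30.4 and 23.8 in the GFP-negative libraries, so the GFP-positive libraries were nearly equal and all below. The difference was -0.998 (SE 0.30, adjusted p = 0.0448), and it no longer passed on leaving out GFP-positive 2, 4 or 7 or GFP-negative 11 or M. Ndufa8 did not pass either, with 17.6, 28.1 and 23.3 against 12.9, 40.4 and 27.5 and GFP-negative 9 as the lowest of all 6.

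Complex II, succinate dehydrogenase, oxidises succinate in the tricarboxylic acid cycle and is the one complex with no mitochondrially encoded subunit. Its 4 genes went different ways. Sdha, the flavoprotein that binds succinate (mm39 chromosome 13, 74470373 to 74498399), measured 6.14, 8.74 and 7.09 scaled FPKM in GFP-positive 2, 4 and 7 and 19.4, 35.3 and 33.5 in GFP-negative 9, 11 and M. All GFP-positive values were below all GFP-negative ones, with library 9 the lowest of its group. The log2 difference was -1.90 (SE 0.30, adjusted p = 0.0103), and -1.87 with the length trend removed. It was called in 17 of 21 alternative settings and lost without GFP-positive 7, without GFP-negative M, without both 11 and M, and at a threshold of 0.01.

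Sdhb, the iron-sulfur subunit that forms the catalytic pair with Sdha, did not pass. Its values were 30.8, 40.1 and 38.8 in the GFP-positive and 31.5, 29.2 and 26.8 in the GFP-negative libraries, a difference of 0.32 (SE 0.24, adjusted p = 0.342), and the groups overlapped. Sdhc, a membrane anchor, gave 14.3, 19.5 and 17.8 against 11.5, 14.5 and 11.5, a difference of 0.44 (SE 0.24, adjusted p = 0.203), also with overlap. Sdhd, the other membrane anchor, was the one complex II gene that rose. Sdhd measured 55.2, 69.4 and 68.01 against 38.2, 29.8 and 29.00, without overlap, a difference of 0.98 (SE 0.25, adjusted p = 0.027), which became 0.50 and did not pass with the length trend removed. Sdhd also did not pass under equal-sum or quantile scaling.

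**Figure D5:**
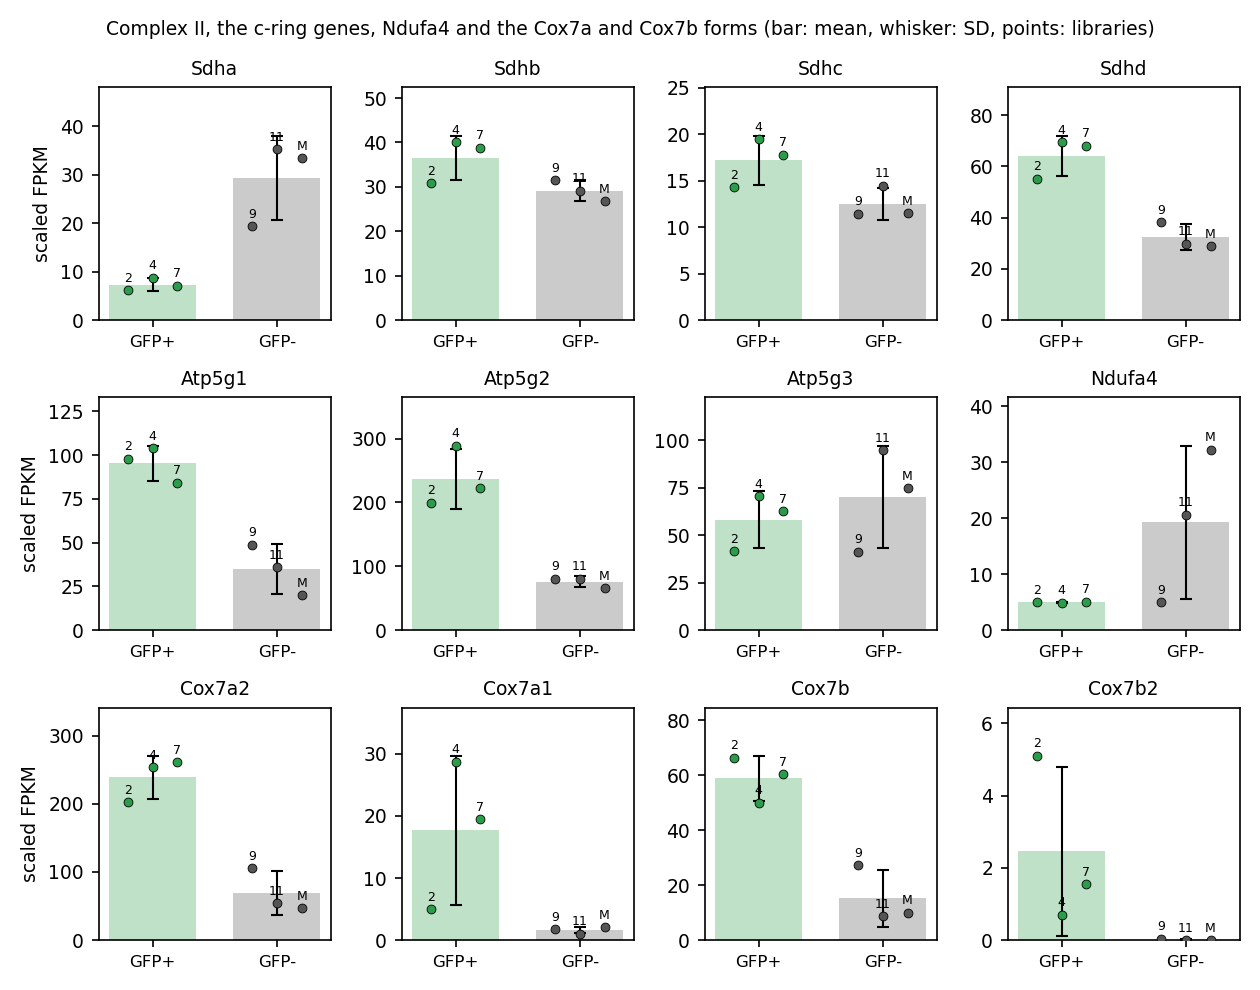
Scaled FPKM of 12 genes in GFP-positive (green) and GFP-negative (grey) libraries, with each library as a numbered point, the mean as a bar from 0 and the SD (n = 3) as a whisker. Sdha is 19.4 to 35.3 in GFP-negative against 6.14 to 8.74 in GFP-positive libraries, Atp5g3 overlaps where Atp5g1 and Atp5g2 separate, and Ndufa4 in GFP-negative 9 equals the GFP-positive level.

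Complex III, the cytochrome bc1 complex, had 8 tested genes, of which 7 rose and none fell. The largest rises were in 3 of its small subunits. Uqcrb, a subunit next to the quinone site, measured 144, 107 and 139 in the GFP-positive and 63.4, 13.4 and 20.2 in the GFP-negative libraries, a difference of 2.29 (SE 0.51, adjusted p = 0.0197). Uqcr10, a small subunit of the membrane part, gave 221, 289.7 and 269.5 against 110.1, 39.6 and 47.95, a difference of 2.11 (SE 0.40, adjusted p = 0.0137). Uqcrh, the hinge protein near cytochrome c1, gave 244, 255 and 247 against 137, 47.4 and 58.5, a difference of 1.77 (SE 0.40, adjusted p = 0.0206). Library 9 was again the highest GFP-negative value in these genes, and all GFP-positive values lay above it.

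Uqcr11 rose by 1.37 and Uqcrq by 1.17, so all 5 small subunits were called, with a median of 1.77. They were shorter than the 3 catalytic or core genes (median 535 against 1642 nt). With the length trend removed the small subunits had a median of 1.06 with 1 called, beside 0.86 and 0 for the catalytic or core genes. Uqcrfs1, the Rieske iron-sulfur protein, rose by 1.29 with 96.7, 95.9 and 93.7 against 48.4, 34.8 and 34.6. The core proteins differed between themselves in call. Uqcrc2 rose by 1.22, while Uqcrc1 overlapped at 58.99, 106 and 86.6 against 56.7, 82.2 and 48.2 and gave 0.42 (SE 0.32, adjusted p = 0.353). Cyc1, the cytochrome c1 gene, which the name pattern did not cover, gave 0.13 (SE 0.27, adjusted p = 0.731) and did not pass.

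Complex IV, cytochrome c oxidase, had 16 tested genes with 12 rises and no called fall. Among its 10 generally expressed subunits 9 rose, all 10 were free of overlap, and their median difference was 1.77. Cox5b, a zinc-binding subunit on the matrix side, measured 93.4, 118 and 117 in the GFP-positive and 34.6, 13.4 and 15.2 in the GFP-negative libraries, a difference of 2.47 (SE 0.37, adjusted p = 0.00989). Cox7c, a small membrane subunit, gave 312, 281 and 303 against 119.8, 38.3 and 60.1, a difference of 2.19 (SE 0.41, adjusted p = 0.0133). Cox6a1, a regulatory subunit and the highest of complex IV by mean level, gave 257, 360.1 and 332 against 179.8, 52.6 and 74.1, a difference of 1.81 (SE 0.45, adjusted p = 0.0254). In all 3 genes GFP-negative 11 was the lowest library. Cox6c (1.74) and Cox5a (1.07) rose as well. Cox4i1, the form of subunit IV found in most tissues, was the general subunit that did not pass, with 264, 291 and 237 against 149.8, 162 and 149 and a difference of 0.77 (SE 0.27, adjusted p = 0.0668). Its counterpart Cox4i2, known from lung and from low oxygen, was under the filter at 0.160 to 0.42 in all libraries.

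Subunit forms known from heart and muscle or from testis were low beside their general forms. Cox7a1, the heart and muscle form, measured 4.94, 28.8 and 19.5 in the GFP-positive and 1.81, 1.04 and 2.07 in the GFP-negative libraries, without overlap, and rose by 2.81 (SE 0.57, adjusted p = 0.0155). GFP-positive 2 was well below the other GFP-positive libraries. The general form Cox7a2 measured 203, 253 and 261 against 105, 54.3 and 47.2 and rose by 1.87 (SE 0.35, adjusted p = 0.0137). Cox7a1 made up 6.51% ± 3.93 of the Cox7a1 and Cox7a2 sum in the GFP-positive and 2.59% ± 1.40 in the GFP-negative libraries (SD, n = 3), with overlapping values. Cox7a2l, which links complexes III and IV into supercomplexes, gave 239.5, 158 and 145 against 80.3, 35.3 and 49.1 and rose by 1.76 (SE 0.37, adjusted p = 0.0165). An annotated pseudogene with at least 95% identity to Cox7a2l over 200 nt or more stood at 46.0 FPKM in the GFP-positive and 6.96 in the GFP-negative libraries, so reads may be split between them.

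Cox7b2, the testis form of Cox7b, measured 5.11, 0.709 and 1.55 in the GFP-positive and 0.0402, 0 and 0 in the GFP-negative libraries. It was called (2.23 (SE 0.50, adjusted p = 0.0202)), but at these low levels the size depends on the pseudocount, from 4.09 at 0.1 to 1.56 at 1. Cox7b2 passed the filter only through the GFP-positive libraries, since its GFP-negative mean was 0.0134. Its highest value was in GFP-positive 2, where 6 of the 9 tested germ cell markers were also highest, among them Dazl (49.8, 4.78 and 4.28 in GFP-positive 2, 4 and 7, 0.629, 0.211 and 0.491 in GFP-negative 9, 11 and M) and Ddx4 (6.03, 1.11 and 2.32 against 0, 0 and 0.0373). The other 3 were lowest there among the GFP-positive libraries, such as Stra8 (0.0814, 3.61 and 11.00 against 0, 0.0665 and 1.00). The part of germ cell RNA in Cox7b2 was not tested. The general form Cox7b gave 66.4, 50.01 and 60.3 against 27.3, 8.70 and 9.98 and rose by 2.09 (SE 0.41, adjusted p = 0.015). Cox6b2, also a testis form, did not pass at 7.92, 6.83 and 9.68 against 6.53, 2.51 and 3.39, a difference of 0.98 (SE 0.35, adjusted p = 0.0695), while the general form Cox6b1 rose by 1.66 (SE 0.28, adjusted p = 0.0118). Cox6a2, the heart and muscle form, gave 0.71 (SE 0.30, adjusted p = 0.115) and did not pass. Of the Cox8 genes, Cox8a rose by 1.23 (SE 0.26, adjusted p = 0.017) with 181, 213 and 196 against 95.3, 75.8 and 80.8. Cox8c, a testis form, was under the filter at 1.25, 0.659 and 0.331 against 0, 0 and 0.122, and Cox8b was listed at 0 in all libraries.

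Ndufa4, first described with complex I and later as a complex IV subunit, showed the reverse direction without a call. It measured 5.05, 4.91 and 5.09 in GFP-positive 2, 4 and 7, nearly equal values, and 4.98, 20.7 and 32.3 in GFP-negative 9, 11 and M. GFP-negative 9 was therefore at the GFP-positive level while 11 and M were above it. The difference was -1.50 (SE 0.57, adjusted p = 0.0851), and it was called in 4 of the 21 alternative settings, among them the one without GFP-negative 9. With GFP-negative 11 and M both left out the difference was -0.05. Its relative Ndufa4l2, known as a gene induced by low oxygen, stayed at or below 0.211 in every library.

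Complex V, ATP synthase, had 17 tested genes, of which 11 rose and none fell. The highest level of all members was that of Atp5b, the catalytic beta subunit. Atp5b measured 491, 608 and 532 in the GFP-positive and 263, 353 and 246 in the GFP-negative libraries, without overlap, but the difference of 0.93 (SE 0.32, adjusted p = 0.0619) did not pass. Among the 5 F1 genes, which form the catalytic head and its stalk, 2 rose, with a median of 0.93: Atp5e (1.89), the small epsilon subunit, and Atp5c1 (0.93), the rotating gamma subunit. Atp5a1, the alpha subunit, gave 0.43 (SE 0.29, adjusted p = 0.284) and Atp5d, the delta subunit, 0.45 (SE 0.28, adjusted p = 0.258), and neither passed.

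The 5 small accessory subunits of the membrane part, which take part in holding ATP synthase in dimers, all rose, with a median of 2.01. They were shorter than the F1 genes (median 396 against 1171 nt). With the length trend removed their median was 1.28 with 4 called, beside 0.43 and 1 for the F1 genes. Atp5j2, subunit f, had the largest rise of all members. It measured 208, 283 and 236 in the GFP-positive and 98.9, 12.7 and 21.04 in the GFP-negative libraries, a difference of 2.98 (SE 0.65, adjusted p = 0.0182). GFP-negative 9 lay far above 11 and M, and with those 2 libraries left out the difference was 1.22. Atp5mpl, a small proteolipid, gave 169, 183 and 193 against 83.4, 20.8 and 27.3, a difference of 2.31 (SE 0.48, adjusted p = 0.0162). Atp5k, subunit e, whose promoter letters are shown above, gave 18.7, 22.9 and 22.2 against 7.26, 2.85 and 5.53, a difference of 2.01 (SE 0.33, adjusted p = 0.0114). Atp5l, subunit g, gave 214, 259.8 and 245 against 99.4, 45.3 and 52.8, a difference of 1.94 (SE 0.34, adjusted p = 0.0129). In these genes the highest GFP-negative library was 9 and no GFP-positive library lay below it. Atp5md, also called DAPIT, rose by 1.84. Of the 4 peripheral stalk genes, which hold the head still against rotation, Atp5o (1.51) and Atp5pb (1.44) rose, and Atp5h (0.79) and Atp5j (0.37) did not pass.

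The rotor ring of ATP synthase is built of subunit c, for which 3 genes encode the same mature protein behind different import sequences. Atp5g1 measured 98.02, 104 and 84.3 in the GFP-positive and 48.9, 35.9 and 19.9 in the GFP-negative libraries and rose by 1.52 (SE 0.35, adjusted p = 0.0205). Atp5g2 measured 199.8, 289 and 222 against 80.7, 80.4 and 65.98 and rose by 1.63 (SE 0.28, adjusted p = 0.0122). Atp5g3 overlapped, at 41.7, 70.5 and 62.6 against 41.4, 94.7 and 74.8, a difference of -0.22 (SE 0.37, adjusted p = 0.672). Atp5g3 thus made up 12.3%, 15.2% and 17.0% of the sum of the c-ring genes in GFP-positive 2, 4 and 7 and 24.2%, 44.9% and 46.5% in GFP-negative 9, 11 and M. Those shares did not overlap, and the GFP-negative ones were higher. Pseudogene copies of Atp5g2 (at least 95% identity) stood at 8.02 FPKM in the GFP-positive and 2.80 in the GFP-negative libraries.

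Near-identical copies were searched for these genes only, so no share over all genes stands beside the counts. An annotated pseudogene copy by the same measure was found for 20 of the 82 tested members, 16 of them called. Of the 62 members without one, 41 were called. Some of these 62 matched genes not annotated as pseudogenes by the same measure, among them Cox5b (Gm11273), Cox7c (Gm10012) and Ndufb9 (Gm49356). The levels of those matches were not read. The copies counted include the members Ndufb4c, Cox6c2 and Ndufs6b, as copies of Ndufb4, Cox6c and Ndufs6. The median difference was 1.58 over members with such a copy and 1.20 over the 62 without. No pseudogene copy was found for Sdha, Atp5j2, Cox7a1 or Ndufa4. A copy of Ndufa12 stood at 7.88 FPKM in the GFP-positive and 2.41 in the GFP-negative libraries.

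The 9 members under the filter were 4 of complex I and 5 of complex IV. Ndufa13, a subunit of complex I, was listed at 0 in all 6 libraries for its single named transcript. An unnamed assembled transcript of 12365 nt overlaps its locus together with the neighbouring genes Cilp2 and Yjefn3, at 4.55, 4.18 and 4.39 FPKM as deposited in GFP-positive 2, 4 and 7 and 2.63, 2.22 and 2.21 in GFP-negative 9, 11 and M, and how much of it belongs to Ndufa13 cannot be told apart. Ndufs6b was also listed at 0 in all libraries. Ndufb11b gave 0.771, 0.402 and 0.422 in GFP-positive and 0 in all GFP-negative libraries, and Ndufa11b was at or below 0.343 throughout. Cox6c2 did not exceed 0.199.

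Assembly factors, which build the complexes but are not part of them, were called in both directions. Of 57 tested genes in these lists 18 were called (31.6%), 15 higher (26.3%) and 3 lower (5.26%), beside 23.9%, 12.4% and 11.5% of all tested genes. The complex III list also holds the subunit gene Cyc1, which was not called. Among 17 tested complex I factors 4 rose and 2 fell. Dmac1 (1.30), Ndufaf5 (1.17) and Foxred1 (0.85) rose, and Ndufaf7 (-0.98), a mitochondrial methyltransferase, and Tmem186 (-1.11) fell. Of 4 complex II factors, Sdhaf1 (0.89) and Sdhaf4 (1.08), a factor that binds the flavinated Sdha, rose. Of 6 tested complex III genes outside the pattern, Uqcc2 (1.06) rose. Of 25 tested complex IV factors 6 rose, among them Pet100 (2.00), Cox20 (1.74) and Cox16 (1.56), and Cox11 (-1.37), which delivers copper, fell. Of 5 complex V factors, Fmc1 (1.39) and Tmem70 (1.28) rose. The median differences of these lists were 0.69, 0.60, 0.47, 0.28 and 0.30 for complexes I to V.

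The mitochondrially encoded subunits, made on the other genome, did not separate the groups in their summed level. In limma none of the 13 passed, beside 23.9% of all tested genes. An unadjusted p under 0.05 was reached by 2 (mt-Nd3 and mt-Nd6, named after their values were seen), beside 40.9% of all tested genes. The median log2 difference was 1.01 and 10 of the 13 were above 0, with standard errors from 0.54 to 1.41. Without overlap between groups, mt-Nd3 was higher (3.09) and mt-Nd6 lower (-1.40) in GFP-positive libraries. The summed level of the 13 was 16411, 9070 and 11335 scaled FPKM in GFP-positive 2, 4 and 7 and 16434, 1738 and 5344 in GFP-negative 9, 11 and M. GFP-negative 9 was the highest of all 6 libraries and GFP-negative 11 the lowest. mt-Co1, the catalytic subunit of complex IV, measured 8687, 4745 and 6044 in the GFP-positive and 8319.7, 993 and 2697 in the GFP-negative libraries, a difference of 1.16 (SE 0.79, adjusted p = 0.295). mt-Co3, another core subunit of complex IV, gave 1.27 (SE 0.71, adjusted p = 0.207).

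The cytochrome c genes and part of the coenzyme Q synthesis genes were also called higher. In the list of both, 5 of 13 rose (38.5%, beside 12.4% of all tested genes) and none fell. The rises were in Cycs, Cyct, Coq3, Coq6 and Coq9. Cycs, the somatic cytochrome c, measured 124, 86.3 and 107 in the GFP-positive and 37.9, 10.2 and 14.7 in the GFP-negative libraries, without overlap, a difference of 2.52 (SE 0.45, adjusted p = 0.0129), which was 2.64 with the length trend removed. Cyct, the testis cytochrome c, was low, at 10.2, 1.53 and 4.71 against 0.208, 0.0501 and 0, and was called at 3.06 (SE 0.54, adjusted p = 0.0129), a size that depends on the pseudocount (4.70 at 0.1 and 2.33 at 1). Cyct passed the filter only through the GFP-positive libraries. Like Cox7b2 it was highest in GFP-positive 2. Coq9, a coenzyme Q synthesis protein, rose by 1.09.

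Transcriptional regulators of respiratory genes showed 1 call in 13 tested (7.69%, beside 23.9% of all tested genes), and their median difference was -0.13. The call was Tfb1m (1.21), a mitochondrial rRNA methyltransferase. Nrf1 (-0.27), Gabpa (-0.64) and Yy1 (-0.06), the factors whose motif letters were searched and named for that reason, did not pass. The tricarboxylic acid cycle list had 4 rises (23.5%) and 2 falls (11.8%) among 17 genes, with a median difference of 0.08. Of all tested genes 12.4% were called higher and 11.5% lower. Mdh2, mitochondrial malate dehydrogenase, measured 22.9, 38.6 and 25.9 in the GFP-positive and 60.5, 141 and 79.2 in the GFP-negative libraries, without overlap, with a log2 difference of -1.61 (SE 0.36, adjusted p = 0.0204), a fall. Ogdh, of the oxoglutarate dehydrogenase complex, fell by 1.18. Fh1 (1.19), fumarase, which acts on the product of complex II, and Suclg1 (1.57), which makes its substrate, rose. Pdha2, the testis form of a pyruvate dehydrogenase subunit, measured 2.88, 0.654 and 0.798 against 0.01, 0.0489 and 0.014 and rose by 1.71, a size that at these levels depends on the pseudocount (3.36 at 0.1 and 1.14 at 1). Pdha2 passed the filter only through the GFP-positive libraries.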

How the data were processed

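Total RNA of 6 Sertoli cell libraries, 3 GFP-positive and 3 GFP-negative, was isolated with TRIzol, treated with DNase, depleted of rRNA and made into dUTP strand-specific libraries, per the labels' protocols. Trimmomatic, HISAT2, StringTie and the build mm39 are named in the submitters' processing notes. Versions and the strand setting are not given in the sources used here, and genes that overlap on both strands may share reads. The deposited tables list 153503 transcripts per library with FPKM and mean per-base coverage, per the file headers. Coverage divided by FPKM was constant within a library and gave the aligned bases. Read counts were not used, and the values carry no counting interval.

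FPKM was summed over named transcripts by gene name. Genes whose longest transcript was under 200 nt were left out, median-of-ratios factors came from 11678 genes whose mean FPKM reached 1, and the test kept genes whose mean scaled FPKM reached 0.5. The tool was limma 3.58.1 (R 4.3.3) on log2(scaled FPKM + 0.5) (lmFit, eBayes with a mean-variance trend, two-sided, Benjamini-Hochberg over 13585 genes, threshold 0.05). On this scale the change of low genes is understated.

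The members and gene lists were chosen with earlier results of these data known, so no test of a list was made. Named genes are all complex II genes, for the other complexes the highest member and up to 4 called rises and 4 called falls by size, the paired subunit forms, and up to 3 calls per direction from each other list. The values of 1 complex I member are not reported here, though counts and medians include it. Further members are named to account for a class or were chosen after their values were seen. The subunit classes, the length definition and loess span (0.3), the motifs and the copy search were also set after that. Copies came from blastn 2.17.0 against GENCODE transcripts (at least 95% identity over 200 nt), promoters from RefSeq GRCm38.p6.

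In simulated data for GFP-positive against GFP-negative (13585 genes), limma called 7 of 67 genes given a log2 change of 1, 37 of 67 given 2, and 62 of 66 given 4. False calls were 5 of 111. Only these genes were changed and the noise was drawn independently for each gene, while 23.9% of all tested genes were called in the data. The simulated counts therefore do not give the recovery or the false calls in these data. The alternatives tried varied the pseudocount, filter, scaling, gene definition, length trend, variance model, library weights, threshold and libraries. Figures were drawn with matplotlib 3.10.9.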

Additional observations from a re-analysis of the deposited data

How the results depend on the processing

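The results were recomputed under 21 alternatives, and no called result changed sign. Pseudocounts of 0.1 and 1, a filter at a mean of 2, FPKM without further scaling, unnamed isoforms added, short transcripts left out, aligned bases over 1 fixed length per gene and a fit without the mean-variance trend gave 54 to 57 members higher and 2 lower. Without a filter, 30317 genes were tested and 679 called, with 18 members higher, 1 lower and a complex IV median of 1.44. Other pathway genes called numbered 2, beside 24 in the reported fit. The other pathway genes are assembly factors, Cyc1, mitochondrially encoded subunits, cytochrome c and coenzyme Q synthesis genes, and regulators. At a threshold of 0.01 there were 206 calls over all genes, 3 members higher, 0 lower (3 at an unadjusted p under 0.05 in limma) and 0 other pathway genes.

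Equal-sum scaling gave 5344 calls over all genes, 27 members higher, a member median of 0.49 and complex medians of 0.42, -0.38, 0.55, 0.97 and 0.73 for I to V. Quantile normalization gave 33 members higher, a member median of 0.91 and complex medians of 0.87, 0.19, 0.89, 1.07 and 0.91. Removing the length trend gave 1784 calls over all genes, 17 members higher, 8 other pathway genes, a member median of 0.69 and complex medians of 0.55, 0.15, 0.91, 1.06 and 0.92. Library weights by limma's gene-by-gene method gave 7344 calls over all genes, 68 members higher, 3 lower and 60 other pathway genes. That method was chosen after the default one stopped before convergence, which had given 72 members higher, 4 lower and 10218 calls. The cause of these shifts was not tested.

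Leaving out 1 library at a time gave 12 to 4929 calls over all genes, 0 to 56 members higher, 0 to 3 lower and 0 to 39 other pathway genes. The member median ran from 1.18 to 1.39, and the complex medians from 1.08 to 1.25 (I), 0.30 to 0.51 (II), 1.19 to 1.49 (III), 1.43 to 2.04 (IV) and 1.19 to 1.72 (V). The lowest counts came without GFP-positive 7 (12 calls) and without GFP-negative M (16 calls), and the highest without GFP-negative 9. Leaving out both GFP-negative 11 and M left library 9 alone, assumed to vary like the other group. It gave 0 calls over all genes in limma (2902 at an unadjusted p under 0.05), 0 members higher and 0 lower (57 and 1 unadjusted) and 0 other pathway genes, with a member median of 0.90 and complex medians of 0.86 (I), 0.93 (III), 1.07 (IV) and 0.95 (V). No paired analysis was possible because the groups share no replicate numbers.

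With 3 libraries a group, leaving out GFP-positive 7 or GFP-negative M took all member calls away (0 higher). Depth was read as aligned bases, and the counting error of low genes such as Cox7b2, Cox8c and Cyct is unknown.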
